A study of Mus musculus with 2 samples.

Results

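Serpins are proteins of one fold, most of which inhibit a protease by offering it a reactive loop as bait and trapping the enzyme once it cuts. Secreted serpins of clade A, such as the alpha-1-antitrypsin and antichymotrypsin families, control neutrophil and mast cell proteases, while intracellular serpins of clade B protect epithelial cells and leukocytes from their own or neighbouring enzymes. A few act on cysteine proteases of the papain type, and a few inhibit no protease and serve as hormone carriers, chaperones or signalling proteins. The serpin genes described here are those whose symbol begins with Serpin and that have a transcript cluster on the array annotated with that symbol alone. There were 54 such genes among 22180 named genes in all, and the one with more than 1 such transcript cluster, Serpinb9b, was read from the brighter of them. Of 69 Serpin symbols in the RefSeq gene table, 15 were not analysed here, among them Serpine2, Serpina3g and Serpinb3b.

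The samples were nasal mucosa of C57BL/6 mice aged 4 to 6 weeks, taken at day 3 after papain, the cysteine protease of papaya latex, which acts as an inhaled allergen, or after phosphate-buffered saline (PBS), the vehicle. Each group was a single Affymetrix Mouse Gene 2.0 ST array, hybridised with RNA that pooled 4 samples into 1 specimen according to the series' design, which does not state whether 4 went into each array. The differences below therefore have neither a replicate check nor a test, and precision is limited by having 1 array per group. Values are log2 array signals, and a ratio is the papain value minus the PBS value on that scale. Background level is taken from 30 genes that mark unrelated organs, whose median signal was 5.17 after papain and 5.07 after PBS, and their 95 percentile over both arrays was 6.63. These 30 were not all silent, since Odf1 read 10.48 after papain and 10.91 after PBS. In 3 of them, Odf1, Tnnt2 and Aqp2, the higher signal reached the median over named genes, and 6.63 rests on these few. A fold with a signal under background level is no measure of transcript, and one whose lower signal lies between that level and 6.63 is of uncertain size. Among 1082 genes read by more than 1 probe set, the ratio of a single probe set had an SD of 0.33 on the log2 scale, a figure for probe error that says nothing of animals. Defining genes of the labelled tissue were present, with 9 of 9 olfactory sensory neuron markers, 6 of 6 sustentacular cell markers and 7 of 7 ciliated cell markers at or above 6.29, the median log2 signal over named genes. In pooled tissue, fewer cells of a type and less RNA per cell cannot be told apart.

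Across the family, 2 of 54 genes had a papain signal at least 2-fold above the PBS signal and 0 had one at least 2-fold below. These shares, 3.7% and 0%, stand beside 1.83% of all named genes higher and 0.73% lower (0.885% and 0.318% without the vomeronasal and olfactory receptor genes), so the counts are too small to set the family apart. At 1.5-fold, 7 serpin genes were higher and 7 lower, 13% each way, against 5.38% and 4.34% of all named genes. Of the 21 serpin genes with both signals at or above background level, 3 were higher by that much, Serpina1e, Serpina3n and Serpini1. Another 4 of the 21 were lower, Serpinb3a, Serpinf1, Serpinb7 and Serpinh1. Under this filter, 2.66% of named genes were higher and 3.57% lower by that much. These serpin counts are small and were not tested. The other 4 higher and 3 lower genes of the 14 had at least 1 signal under background level. The median log2 ratio of the 54 genes was -0.04, near the -0.03 of all named genes, with 25 ratios above 0 and 29 below. Ratios below 0 made up 53.7% of the family and 54.4% of all named genes. That share was 59.7% of named genes with both signals at or above background level and 64.1% of those whose higher signal reached 6.29, the shares against which the counts below are to be read. Both signals reached background level in 21 genes, whose median was -0.15 against -0.07 for the 15271 named genes that did so, and 31 serpin genes were under it in both arrays.

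**Figure D1:**
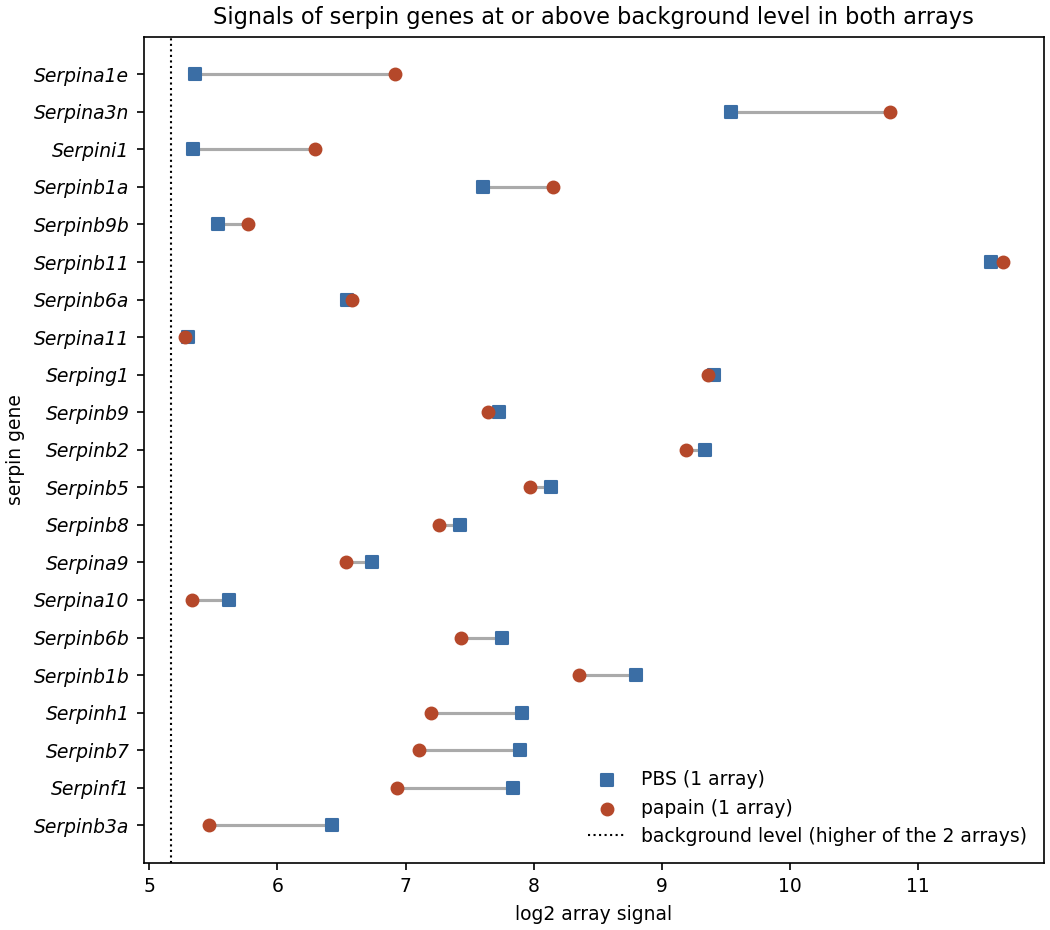
Log2 array signal (horizontal axis) of the 21 serpin genes at or above background level in both arrays, 1 array each for PBS (squares) and papain (circles), ordered by their ratio. Serpina1e, with signals of 6.92 and 5.36, and Serpina3n, with 10.78 and 9.54, are separated by more than 2-fold, and the dotted line is the higher of the background levels, 5.17.

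The gene with the largest ratio among serpins, Serpina1e, has neighbours of near-identical sequence, so its sequence is shown beside that of a neighbour whose signals were both under background level. Both windows are from RefSeq on GRCm38.p6 and run 250 bases before to 50 bases after the annotated start, and the capitals mark bases that differ within the stretch they share or that one of them lacks. That of Serpina1e lies at chr12:103956848-103957147, minus strand, and that of Serpina1b at chr12:103738140-103738439, minus strand.
Serpina1e: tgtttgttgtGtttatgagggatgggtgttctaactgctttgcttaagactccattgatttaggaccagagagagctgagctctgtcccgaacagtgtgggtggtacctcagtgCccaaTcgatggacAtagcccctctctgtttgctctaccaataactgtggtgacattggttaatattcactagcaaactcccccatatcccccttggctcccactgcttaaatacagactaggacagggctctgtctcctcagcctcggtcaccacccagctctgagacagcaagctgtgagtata
Serpina1b: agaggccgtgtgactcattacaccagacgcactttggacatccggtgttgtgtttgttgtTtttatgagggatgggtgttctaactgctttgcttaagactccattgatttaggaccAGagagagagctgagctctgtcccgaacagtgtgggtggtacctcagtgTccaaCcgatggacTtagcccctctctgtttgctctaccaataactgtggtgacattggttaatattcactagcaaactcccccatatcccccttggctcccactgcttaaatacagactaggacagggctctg
The shared stretch covers 250 aligned positions, of which 244, or 97.6%, are identical. It sits further upstream in the Serpina1e window, since the annotated starts are offset. The windows of Serpina1a, Serpina1c and Serpina1d share stretches with Serpina1e that are 95.9%, 95.2% and 97.0% identical, while that of Serpina1f has only a shared stretch of 9 bases with it.

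Serpina1e, a mouse alpha-1-antitrypsin gene, read 6.92 after papain and 5.36 after PBS, a 2.95-fold difference. Its PBS signal is close to background level, so the fold is of uncertain size. The 5 other Serpina1 genes, Serpina1a, Serpina1b, Serpina1c, Serpina1d and Serpina1f, were under background level in both arrays, with ratios from -0.13 for Serpina1f to 0.33 for Serpina1a. Serpina1a to Serpina1e resemble each other in sequence, so to which of them a probe's signal belongs is uncertain. Alpha-1-antitrypsin is made chiefly by liver and guards lung and other tissue against neutrophil elastase. Whether the product of Serpina1e itself inhibits elastase was not examined. Markers of hepatocytes were near background: 7 of 11 were under it in both arrays, among them Alb and Ambp, and 2 had a signal of 6.29 or more. The list's summed linear signal was 477 after papain and 466 after PBS, or 369 and 338 without Cyp2e1, its brightest gene. Ratios were above 0 for 8 of the 11, and for 2 of the 4 with both signals at or above background level.

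Serpina3n, a secreted antichymotrypsin-like inhibitor and an acute phase gene of the mouse, read 10.78 after papain and 9.54 after PBS, a log2 ratio of 1.24 or 2.36-fold. This was the only serpin gene at least 2-fold apart whose lower signal also exceeded 6.63. The 4 other measured genes of the Serpina3 set, Serpina3a, Serpina3b, Serpina3i and Serpina3j, were under background level in both arrays. Their ratios were 0.57, -0.09, 0.56 and 0.63 in that order, and none of these measures a fold in transcript. Further genes of the set, such as Serpina3c, Serpina3g and Serpina3m, were not analysed. Whether the probes of Serpina3n also read other Serpina3 genes was not examined. Of 16 acute phase genes, 2 were at least 2-fold higher and 0 lower, with a median log2 ratio of 0.16. Both of the 2, Saa3 and Fga, had PBS signals under background level, at 4.98 and 3.47. Lcn2, an iron-withholding protein, had 0.90 and Orm1, an acid glycoprotein, 0.62, while Hp, the haemoglobin-binding haptoglobin, had -0.60.

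Other serpins of leukocyte proteases went apart by gene. Serpinb1a, an intracellular inhibitor of neutrophil elastase, read 8.15 after papain and 7.60 after PBS, a ratio of 0.54. Its paralog Serpinb1b went the other way, from 8.79 after PBS to 8.36 after papain, a ratio of -0.44. Serpinb9, which shields cytotoxic lymphocytes from granzyme B, read 7.64 and 7.73, and its ratio of -0.09 turned to 0.03 after loess. Serpinb6a, an inhibitor of cathepsin G, read 6.58 after papain and 6.54 after PBS, and its paralog Serpinb6b read 7.43 and 7.75, with a ratio of -0.32. In all, 25 genes of the sets known for leukocyte serine proteases had a median of 0.04, with 2 at least 2-fold higher and 0 lower. The list includes Serpina1e and Serpina3n and leaves out Serpina3a. Its shares past 2-fold, 8% and 0%, stand beside 1.83% and 0.73% of all named genes. Of these 25 genes, 16 were under background level in both arrays.

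Neutrophil markers were measured beside these genes. Of 12 markers, 8 had ratios above 0 and 1 was at least 2-fold higher, with a median of 0.14. The list's summed linear signal was 7831 after papain and 6746 after PBS, most of it from Ltf, which glands also secrete, and 635 and 541 without Ltf. Cxcr2, a chemokine receptor, had a ratio of 1.26 of uncertain size, its PBS signal being 5.59, while Elane, which encodes neutrophil elastase, had -0.06 and Ly6g was under background level in both arrays. The part of such cells in the ratios of Serpina3n and Serpinb1a was not tested.

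Of the serpins of squamous epithelium and those that act on cysteine proteases, Serpinb3a and Serpinb7 were lower in the papain array by more than 1.5-fold. Serpinb3a, a gene of the squamous cell carcinoma antigen set, whose human counterpart inhibits papain and related cathepsins, read 5.46 after papain and 6.42 after PBS. Its ratio of -0.96, or 1.94-fold lower, was the lowest in the family, and its fold is of uncertain size because both signals were under 6.63. Serpinb3c and Serpinb3d were under background level in both arrays, as was Serpinb13, an inhibitor of lysosomal cathepsins. Serpinb3b was not analysed, and whether the probes of Serpinb3a also read other Serpinb3 genes was not examined. Serpinb7, a keratinocyte serpin, read 7.10 after papain and 7.89 after PBS, a ratio of -0.79.

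The remaining squamous serpins with clear signal differed by less than the probe set SD. Serpinb5 (maspin), an epithelial serpin without protease inhibition as its main role, had -0.16, at 7.97 after papain and 8.14 after PBS. Serpinb2 (plasminogen activator inhibitor 2) had -0.15, at 9.18 and 9.33, and Serpinb8 had -0.17, at 7.26 and 7.43. Serpinb11 had 0.09, at 11.66 and 11.57. Of 11 squamous serpin genes measured, 0 were past 2-fold, 8 had ratios below 0 and 3 above, and the median was -0.17. Of these 11, 5 were under background level in both arrays, and of the other 6, 5 had ratios below 0. Of 14 squamous keratinocyte markers, all with a signal of 6.29 or more, 11 had ratios below 0, with a median of -0.20 and 0 past 2-fold, where 64.1% and a median of -0.10 were found for named genes of such signal. Krt17 had -0.94, Lor -0.65 and Sprr3 -0.63, and the summed linear signal of all 14 markers was 6040 after papain against 6979 after PBS. The part of squamous tissue in the ratios of Serpinb3a and Serpinb7 was not tested.

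Most of these epithelial genes are neighbours. In the RefSeq order of genes, 10 measured serpins lie in a run with Serpinb2, Serpinb3a and Serpinb5, and 8 of the 10 had ratios below 0, with a median of -0.19. Of the 6 with both signals at or above background level, 5 were below 0. Another run holds 15 measured genes of the Serpinb1, Serpinb6 and Serpinb9 sets, with a median of -0.09 and 6 ratios above 0, or 3 of the 6 that had both signals at or above background level. The run of 19 Serpina genes had a median of 0.11 and 12 ratios above 0. Only 5 of those 19 had both signals at or above background level, and of these 5, Serpina1e and Serpina3n had ratios above 0 and Serpina9, Serpina10 and Serpina11 below. The differences between the runs were not tested.

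**Figure D2:**
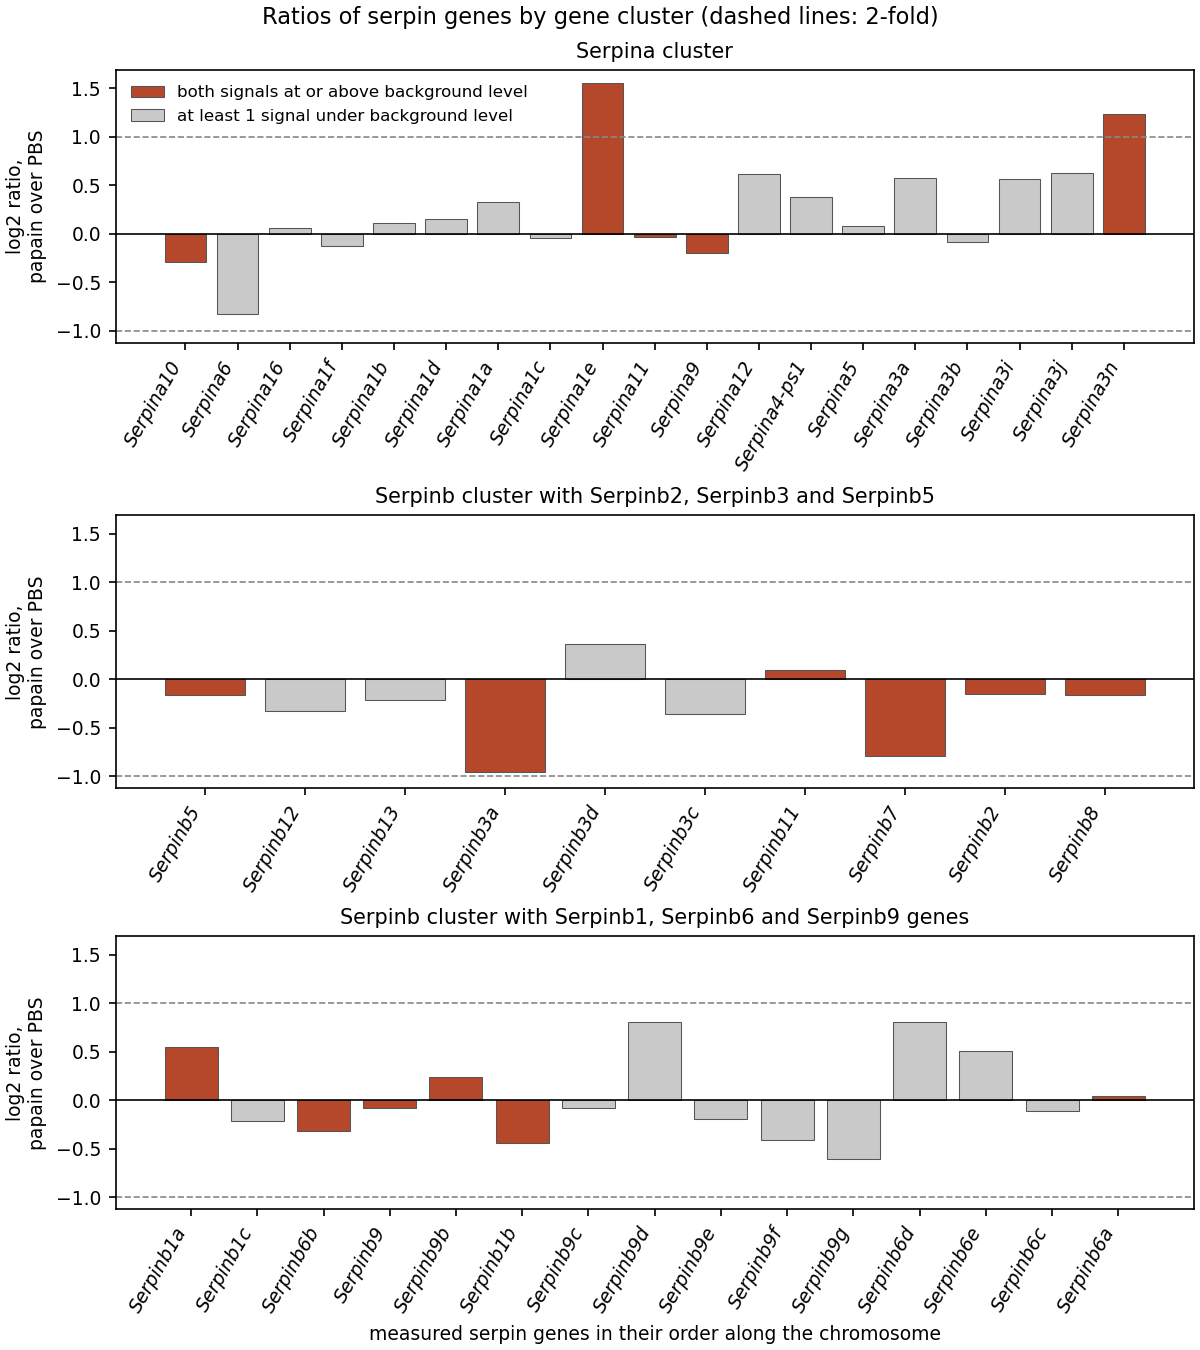
Log2 ratio of papain over PBS (vertical axis) for measured serpin genes in their chromosomal order, 1 panel per gene cluster, 1 array per group. Filled bars have both signals at or above background level, grey bars have not, and dashed lines mark 2-fold. The bars past the lines are Serpina1e at 1.56 and Serpina3n at 1.24, and 8 of 10 bars in the middle panel lie below 0.

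Promoter windows of 47 of the 54 genes were found, and 6 motifs were searched on both strands. The AP-1 motif was searched as TGANTCA, a looser form of the TGAGTCA or TGACTCA to which Jun and Fos proteins bind. It occurred for 6 of 9 genes in the run with Serpinb2, Serpinb3a and Serpinb5, and for 0 of 14 in the other Serpinb run. Of those 6, Serpinb7 and Serpinb8 had TGAGTCA, while Serpinb5, Serpinb12, Serpinb11 and Serpinb2 had only TGAATCA or TGATTCA. In the Serpina run TGANTCA occurred for 4 of 15 genes, the near-identical Serpina1a, Serpina1b, Serpina1c and Serpina1d, all as TGACTCA. Of all 55 serpin windows (some genes have several), 20% hold TGANTCA against 7.81% of all 32851 promoter windows. Serpinb7, among the lower genes, and Serpinb8, which differed little, are shown with the motif in capitals. Their windows lie at chr1:107422439-107422738, plus strand and chr1:107589756-107590055, plus strand, and both are from GRCm38.p6.
Serpinb7: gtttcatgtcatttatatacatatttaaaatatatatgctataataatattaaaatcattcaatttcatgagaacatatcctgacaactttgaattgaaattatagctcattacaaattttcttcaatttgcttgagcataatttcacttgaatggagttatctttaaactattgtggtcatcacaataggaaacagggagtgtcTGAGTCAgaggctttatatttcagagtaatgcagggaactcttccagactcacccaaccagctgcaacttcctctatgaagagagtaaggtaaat
Serpinb8: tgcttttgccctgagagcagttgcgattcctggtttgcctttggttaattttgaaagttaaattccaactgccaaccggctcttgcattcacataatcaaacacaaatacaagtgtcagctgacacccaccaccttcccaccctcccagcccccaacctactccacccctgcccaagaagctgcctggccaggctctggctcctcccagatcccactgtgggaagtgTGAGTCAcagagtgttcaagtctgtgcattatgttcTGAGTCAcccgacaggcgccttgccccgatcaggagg
A match is a run of letters and not a known site. The TATA motif TATAAA occurred for 6 of the same 9 genes, and none of its matches in this run overlapped an AP-1 match. By window, it was in 27.3% of the 55 serpin windows against 13.6% of all windows. Its matches were counted anywhere in the window, those of Serpinb12 lying only at -220 and -201 from the annotated start. The STAT motif TTCNNNGAA was found in 14.5% of the 55 serpin windows against 8.3% of all windows. The STAT6 motif, TTC and GAA with any 4 bases between, was found in 10.9% against 6.95%, and the interferon motif, GAAA repeated with any 2 bases between, in 5.45% against 3.44%. The heat shock motif, TTC, GAA and TTC with any 2 bases between each, was in none of the serpin windows and in 0.603% of all windows. Matches of different motifs overlapped in 1 gene, Serpinb6a, for the STAT and interferon motifs. The letters of none of these 6 motifs were in the windows of Serpina3n and Serpina1e. The TGACTCA of Serpina1b lies upstream of the stretch it shares with Serpina1e, where the offset Serpina1e window does not reach. The lack of AP-1 letters in the Serpina1e window is therefore not shown to be a difference between these genes.

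Of the 5 serpins that do not act mainly as protease inhibitors, Serpinf1 and Serpinh1 were lower by more than 1.5-fold, Serpinb5, given above, lay within the probe set SD, and none was past 2-fold. Serpinf1, which encodes pigment epithelium-derived factor, a secreted inhibitor of vessel growth, read 6.93 after papain and 7.84 after PBS, a ratio of -0.91 or 1.88-fold lower. Serpinh1 (Hsp47), the chaperone of collagen in the endoplasmic reticulum, read 7.20 and 7.91, a ratio of -0.71 or 1.64-fold lower. Of the hormone carriers, Serpina6, which binds glucocorticoids, read 4.72 after papain, under background level, and 5.55 after PBS, and Serpina7, which binds thyroid hormone, was under it in both arrays.

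Genes of collagen and of fibroblasts were read beside these. Of 17 collagen and collagen-processing genes that Serpinh1 serves or works beside, 14 had ratios below 0, with a median of -0.34 and 0 past 2-fold, against 64.1% below 0 and a median of -0.10 for named genes of such signal. Col11a1 had -0.97, Col1a2 -0.78 and Col1a1 -0.60. The 10 fibroblast markers were all below 0 in ratio (median -0.37), and Pdgfrb had -0.62, but 4 of them, Col1a1, Col1a2, Col3a1 and Col6a1, are also in the collagen list. Lower ratios were not confined to fibroblast genes: 7 of 7 ciliated cell markers were below 0, with a median of -0.45, as were 7 of 8 endothelial markers, with -0.19. The fibroblast markers' summed linear signal was 12714 after papain and 18208 after PBS, and the part of fibroblasts in the ratios of Serpinf1 and Serpinh1 was not tested.

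Serpini1 (neuroserpin), a neuronal inhibitor of tissue plasminogen activator, read 6.29 after papain and 5.34 after PBS, a ratio of 0.95 or 1.93-fold. Its PBS signal lies between background level and 6.63, so the fold is of uncertain size. The 5 vomeronasal neuron markers had ratios above 0, with a median of 0.56, or 0.42 over the 4 with both signals at or above background level. Trpc2 had 0.83, of uncertain size with a PBS signal of 6.21, and Gnao1 had 0.56, while Meis2 at 0.29 and Gnai2 at 0.10 lay within the probe set SD. Calr4 was past 2-fold, with a PBS signal of 4.59 under background level. The summed linear signal of the 5 vomeronasal markers was 3148 after papain and 2404 after PBS. Olfactory sensory neuron markers went the other way, 7 of 9 with ratios below 0 and a median of -0.28. The part of vomeronasal tissue in the ratio of Serpini1 was not tested. Plat, which encodes tissue plasminogen activator, had -0.06.

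Of 7 serpins of clotting, fibrinolysis and complement, 3 had both signals at or above background level, and these differed by less than the probe set SD. Serping1, the C1 inhibitor that restrains the first complement component and kallikrein, read 9.36 after papain and 9.41 after PBS, and its ratio of -0.05 turned to 0.02 after loess. Serpina10, an inhibitor of coagulation factor X, read 5.34 and 5.62, a ratio of -0.29. Serpinc1 (antithrombin), Serpind1 (heparin cofactor II), Serpinf2 (the plasmin inhibitor) and Serpina5 (the protein C inhibitor) were under background level in both arrays. None of the 7 genes of this group was past 1.5-fold, with ratios from -0.29 to 0.30 and a median of 0.05. The 0.30 of Serpind1 and this median, the ratio of Serpinf2, come from genes under background level. The 3 genes with both signals at or above it, Serpinb2 among them, all had ratios below 0, with a median of -0.15. Among 16 receptors and partners of plasminogen activation and clotting, 0 were past 1.5-fold, with a median of -0.08, and Lrp2, an endocytic receptor that clears serpin complexes, had -0.55.

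Of 34 genes for proteases that serpins inhibit or that belong to those enzyme families, 0 were past 2-fold, with a median of -0.07. F10 had 0.66, of uncertain size with a PBS signal of 5.91, and Ctss, a lysosomal cysteine protease of antigen-presenting cells, 0.65, while Prss8, an epithelial membrane protease, had -0.55. Of 45 genes for protease inhibitors of other families, 1 was at least 2-fold higher and 1 lower, with a median of 0.06. The higher one was Wfdc18 at 1.15, and the lower one was Pi15 at -1.01, with a papain signal of 4.56 under background level. Among 22 targets of the type 2 cytokines IL-4 and IL-13, 6 were at least 2-fold higher and 0 lower, with a median of 0.33, beside 1.83% and 0.73% of all named genes. The PBS signals of 2 of the 6, Retnla at 2.70 and Chil3 at 4.65, were under background level. That list was chosen without serpins, so it says nothing of whether a serpin is a target of these cytokines.

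**Figure D3:**
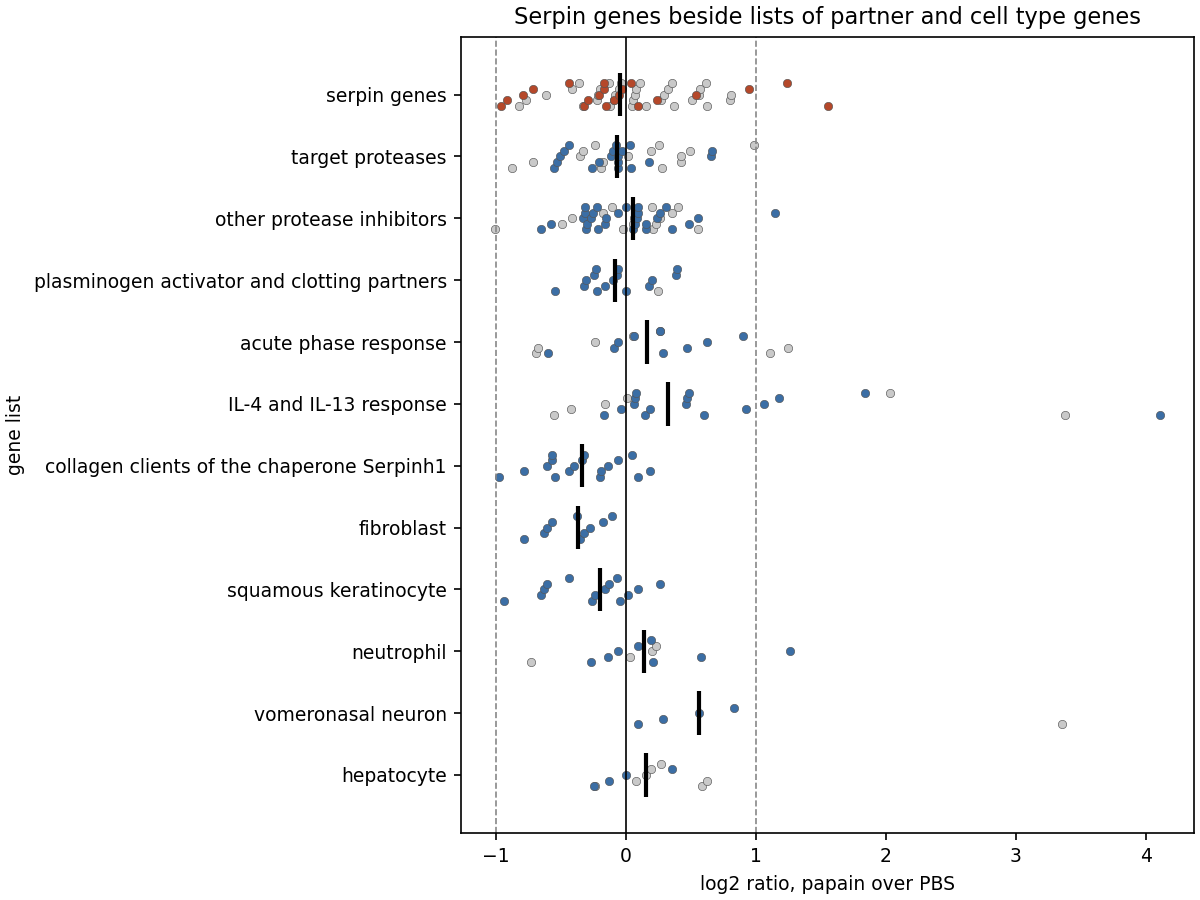
Log2 ratio of papain over PBS (horizontal axis) of each serpin gene and of each gene in some of the lists of partners and cell types. There is 1 point per gene in a list, grey for genes with a signal under background level, and a black bar at the median of the list's measured genes. The lists of ciliated cells, endothelium, olfactory sensory neurons and sustentacular cells, among others, are not drawn. The serpin median is -0.04, the fibroblast points all lie below 0, and dashed lines mark 2-fold.

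The 31 serpin genes under background level in both arrays had ratios from -0.77 for Serpini2 to 0.81 for Serpinb9d, 18 above 0 and 13 below. They included 5 of 7 measured Serpinb9 genes, and the vaspin gene Serpina12, with signals of 4.44 and 3.82. Serpinb9b, with both signals above background level, had 0.24 in the brighter of its transcript clusters and -0.19 in the other, which was under background level. Serpina9, a serpin of germinal centre B cells, had -0.20 and Serpina11 -0.03, the latter changing sign between settings.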

How the data were processed

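The authors deposited 1 value per transcript cluster and array, taken here to be log2 signal from the range of the values. Transcriptome Analysis Console 4.0 is named per the submitters' processing notes, while the background correction, summarisation and normalization used were not given in the sources used here. Genes were named from 23521 of 41345 clusters annotated with 1 symbol (1814 had several, 16010 none), and 54 of 54 serpin gene IDs were found in the RefSeq table (GRCm38.p6) with the same symbol. The brightest cluster by mean signal stood for a gene. Neighbouring serpins were joined in a run when no more than 25 table rows apart, in runs of 5 or more. With 1 array per group no test was made. The members and lists were chosen with earlier results of these data known. Every serpin could be named, and up to 3 genes per list with the largest ratio among those whose higher signal reached 6.29, so that a gene could pass through 1 array alone; Saa3, Fga, Elane, Ly6g, Alb, Ambp, Plat, Pi15, Retnla, Meis2, Gnai2, Col3a1 and Col6a1 were named after their values were seen. Alternatives were quantile normalization, the median ratio set to 0, loess (span 0.3), averaged clusters, other thresholds and filters. Counting was tested on simulated data. Python 3.11.15, numpy 2.4.6, pandas 2.3.3, statsmodels 0.14.6, biopython 1.88 and matplotlib 3.10.9 were used.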

Additional observations from a re-analysis of the deposited data

How the results depend on the processing

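Under quantile normalization, the median ratio set to 0, loess and averaged clusters, 2 serpin genes were at least 2-fold higher and 0 lower each time, and 49 of 54 genes kept the sign of their ratio in all 4. The 5 that did not were Serpina11, Serpina1c, Serpinb9, Serpinf2 and Serping1. The counts were 7 higher and 7 lower at 1.5-fold and 0 higher at 3-fold. The median ratio of -0.04 was -0.16 among members whose higher signal reached 6.29 and -0.15 among those with both signals at or above background level, filters that leave out dim genes; the former lets in Serpina1e and Serpinb3a through 1 array alone and is no check of stability. No paired analysis was possible because each group is 1 array, and no replicate could be left out for the same reason. In 33 of the 54 genes at least 1 signal was under background level. Among the other 21, Serpina1e, Serpini1, Serpinb3a, Serpina9, Serpina10, Serpina11, Serpinb6a and Serpinb9b had a lower signal between that level and 6.63. The size of their folds is uncertain too.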

Other observations

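Of the inhibitors outside the serpin family, the metalloproteinase inhibitor genes Timp1, Timp2, Timp3 and Timp4 all had ratios below 0, at -0.25, -0.65, -0.31 and -0.31, chosen after their values were seen. The skin protease inhibitor gene Spink5 had -0.15, and Slpi, the secretory leukocyte protease inhibitor gene, 0.55, its PBS signal of 6.07 under 6.63; both were chosen likewise.

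Serpin transcript clusters annotated with several symbols entered no comparison. There were 2, one shared by Serpinb10 and Serpinb2 reading 6.37 after papain and 6.19 after PBS, and one shared by Serpinb6a and another gene, with 4.48 and 4.55, under background level in both arrays.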
